A study of Mus musculus with 56 samples.

Results

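The 5 genes Cyp1a1, Cyp1b1, Ahr, Arnt and Tiparp of the aryl hydrocarbon receptor (AHR) pathway were followed in mouse heart, 5 of the 22864 genes listed in the deposited table. They were taken by symbol. Cyp1a1 had been chosen by its values in these libraries, a large amplitude under both feeding regimens and a shifted peak, so its time course is described here and carries no test between regimens or of rhythm. The other 4 members belong to the same pathway and were tested.

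Hearts came from female C57BL/6J mice aged 9 weeks, kept in 12 h of light and 12 h of dark. For 7 days they received food only in the light phase (daytime-restricted feeding, DRF, food from ZT0, where ZT is zeitgeber time in hours after lights on) or only in the dark phase (nighttime-restricted feeding, NRF, food from ZT12), the usual feeding time of a nocturnal animal. PolyA RNA was sequenced every 4 h over 7 ZTs, the first ZT0 and the last ZT24, with 4 libraries for each of the 14 combinations, 56 in all. No source used here says whether each library is a separate mouse, so p-values measure the spread between libraries. No mutation or transgene is named in the labels. In RNA of whole heart, fewer cells of a type and less RNA per cell cannot be told apart.

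AHR is a cytosolic receptor for planar aromatic ligands that come from combustion, diet, gut microbes and tryptophan. It waits in a chaperone complex with HSP90 and p23 (the product of Ptges3), moves to the nucleus when a ligand binds, and pairs there with ARNT, which also partners the hypoxia factors HIF1A and EPAS1. The pair binds a short DNA core and raises transcription of Cyp1a1 and Cyp1b1, cytochrome P450 enzymes that oxidise many such ligands, and of Tiparp, an ADP-ribosyltransferase that, like the repressor AHRR, limits the receptor. Cyp1a1 is the member whose level is known to range most widely with ligand, and ARNT and AHR belong to the bHLH-PAS family that also holds the clock proteins BMAL1 and CLOCK.

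The 250 bases before the start of 4 of the 5 members are shown because each holds the core that the AHR and ARNT pair binds, GCGTG or its reverse complement CACGC, in capitals. They are from RefSeq, build GRCm38.p6, on the strand of the gene, and cover chr9:57697363-57697612 (+) for Cyp1a1, chr17:79715062-79715311 (-) for Cyp1b1, chr3:95434140-95434389 (+) for Arnt and chr3:65528197-65528446 (+) for Tiparp.
Cyp1a1: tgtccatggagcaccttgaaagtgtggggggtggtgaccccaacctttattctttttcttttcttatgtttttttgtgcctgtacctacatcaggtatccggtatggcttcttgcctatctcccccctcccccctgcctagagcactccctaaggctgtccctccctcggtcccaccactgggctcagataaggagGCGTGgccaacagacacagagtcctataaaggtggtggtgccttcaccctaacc
Cyp1b1: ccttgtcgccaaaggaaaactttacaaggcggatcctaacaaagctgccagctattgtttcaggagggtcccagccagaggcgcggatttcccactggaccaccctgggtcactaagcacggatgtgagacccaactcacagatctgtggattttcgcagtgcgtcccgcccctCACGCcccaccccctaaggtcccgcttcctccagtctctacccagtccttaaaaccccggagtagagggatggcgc
Arnt: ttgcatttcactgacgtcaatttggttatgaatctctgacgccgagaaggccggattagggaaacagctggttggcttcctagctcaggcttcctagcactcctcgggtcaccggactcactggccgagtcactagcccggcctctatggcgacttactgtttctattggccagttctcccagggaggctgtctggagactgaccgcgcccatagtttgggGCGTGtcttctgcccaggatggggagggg
Tiparp: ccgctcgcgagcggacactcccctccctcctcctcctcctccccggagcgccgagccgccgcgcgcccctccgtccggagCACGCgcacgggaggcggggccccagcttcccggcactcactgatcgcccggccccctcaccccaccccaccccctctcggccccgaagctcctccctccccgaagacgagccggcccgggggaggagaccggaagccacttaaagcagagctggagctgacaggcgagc
The core is a motif of 5 letters and 28.2% of the 32851 promoters in the same table hold it on either strand in a window of that length, so a match is a description of the letters and no sign of binding. In Cyp1a1 the core begins 54 bases before the start, ahead of a TATAAA that begins 30 bases before it. In Arnt it begins 29 bases before the start, and in Cyp1b1 and Tiparp it reads on the reverse strand, 76 and 170 bases before it. No sequence is shown for Ahr, which has no entry in the RefSeq set used here, so its bases were not searched for the core. The RefSeq start used here lies 9685 bases inside the GENCODE span given next for Cyp1a1 and 37 bases inside that for Tiparp, so those windows fall partly or wholly within the gene as GENCODE annotates it.

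In GENCODE M21 (GRCm38), Cyp1a1 spans chr9:57687928-57703824, Cyp1b1 chr17:79701537-79715061, Ahr chr12:35497974-35535038, Arnt chr3:95434388-95497240 and Tiparp chr3:65528410-65555518. Ahr and Tiparp overlap noncoding genes on the opposite strand and Arnt overlaps a pseudogene, and the library kit as described does not mark strand, so reads of such pairs cannot be told apart.

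Levels are linear TPM (reads per exon length, scaled to the same sum in each library), recomputed from whole reads recovered from the deposited values. The libraries held 29.3 M to 53.0 M recovered reads (median 37.4 M), and the members had 27 to 8627 reads per library. All 5 members passed the filter of a mean of at least 1 TPM that left 13893 genes for testing. Heart muscle markers were present throughout. The summed level of 5 cardiomyocyte genes (Myh6, Tnnt2, Actc1, Ryr2 and Myl2) lay between 19520 and 32335 TPM in every library.

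The labels were compared with 16 clock genes, and 54 of 56 libraries were closest to a group of their own clock time. The library labelled DRF ZT4 replicate 1 was closest to NRF ZT8 (root mean square difference 0.249 on the log2 scale, against 1.07 to the rest of its own group). The library labelled NRF ZT8 replicate 1 was closest to DRF ZT4 (0.407 against 1.35). Arntl, which encodes the clock activator BMAL1, was at 1.959 TPM in that DRF ZT4 library against 5.81 to 7.22 TPM in the other DRF ZT4 libraries. It was at 5.99 TPM in that NRF ZT8 library against 0.885 to 1.93 TPM in the other NRF ZT8 libraries. These 2, the libraries closest to another clock time, were kept under their labels, and their omission is given beside the results that moved with it. A further 5 libraries were closest to the other regimen at their own clock time and were left out of no fit as a set, among them DRF ZT16 replicate 1 (0.347, against 0.811 to its own group) and NRF ZT16 replicate 4 (0.421, against 0.452).

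The highest group mean of Cyp1a1 fell at ZT8 under DRF and at ZT16 under NRF, and the libraries of NRF ZT16 were split. At DRF ZT8 the 4 libraries had 49.0, 39.0, 124.0 and 35.4 TPM, a mean of 61.8 ± 41.8 TPM (SD, n = 4). At NRF ZT16 the 4 libraries had 4.31, 166.5, 5.66 and 131.7 TPM, a mean of 77.0 ± 84.4 TPM. All 4 libraries were high at DRF ZT8, while at NRF ZT16 a pair was high and the other pair lay among the levels of NRF ZT20 and ZT24.

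The NRF ZT8 libraries had 3.47, 1.25, 1.73 and 1.91 TPM, all below every DRF ZT8 library, and the ratio of the means was 29.6, or 37.9 without NRF ZT8 replicate 1, the library closest to another clock time. The DRF ZT16 libraries had 21.2, 4.76, 5.58 and 17.7 TPM, which overlapped NRF ZT16, and their mean was 11.1 times that at DRF ZT0. The mean at DRF ZT16 was 12.3 TPM, against 1.11 TPM at DRF ZT0 and 2.12 TPM at DRF ZT24, so the ratio to DRF ZT24 is smaller. Cyp1a1 was lowest in DRF at ZT0 (1.31, 1.22, 1.06 and 0.850 TPM) and in NRF at ZT12 (between 0.645 and 1.098 TPM), each the time at which food was about to be given. The mean at DRF ZT8 was 55.6 times that at DRF ZT0, and 37.0 times without DRF ZT8 replicate 3. Against DRF ZT24, the same clock time as ZT0, the ratio was 29.2. The mean at NRF ZT16 was 82.5 times that at NRF ZT12, 50.6 times without replicate 2, and 5.34 times for the lower pair alone.

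**Figure D1:**
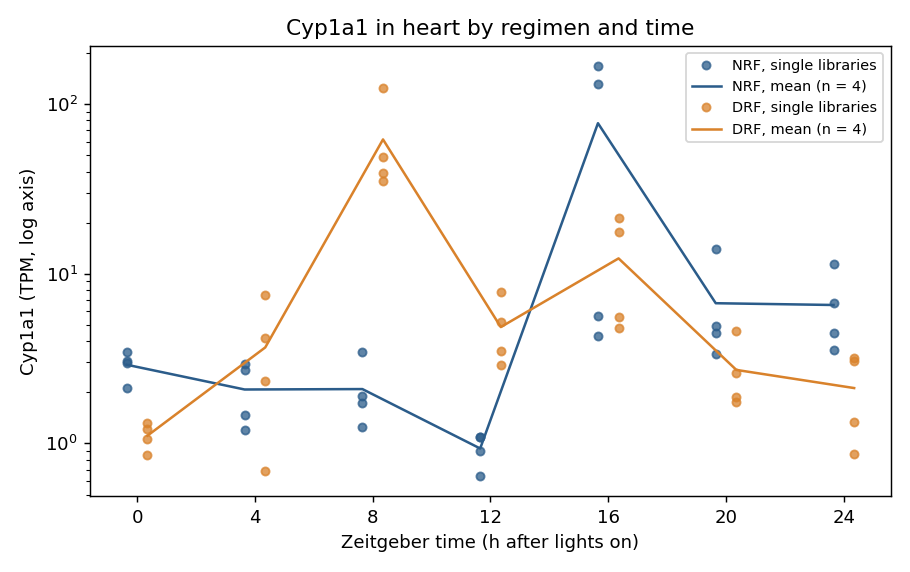
Cyp1a1 level (TPM, log axis) in every library against zeitgeber time, with points for single libraries and lines through the means of 4 libraries, for NRF (blue) and DRF (orange). All 4 DRF ZT8 points lie between 35.4 and 124.0 TPM, and the NRF ZT16 points split into a pair at 131.7 and 166.5 TPM and a pair at 4.31 and 5.66 TPM.

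The order of the libraries shows how few carried high levels. The 8 highest were NRF ZT16 replicates 2 and 4, the 4 DRF ZT8 libraries, and DRF ZT16 replicates 1 and 4 (21.2 and 17.7 TPM), and the other 48 lay between 0.645 and 14.01 TPM with a median of 2.96 TPM. Next came NRF ZT20 replicate 3 (14.01 TPM) and NRF ZT24 replicate 3 (11.5 TPM).

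By group mean, NRF ZT16, DRF ZT8 and DRF ZT16 (12.3 ± 8.36 TPM) were followed by NRF ZT20 (6.70 ± 4.91) and NRF ZT24 (6.54 ± 3.55 TPM). The remaining 9 groups had means of 0.934 to 4.85 TPM. In this order, 11 of 13 neighbouring pairs differed by less than the larger of their SDs.

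A 24-h harmonic fit on log2(TPM + 1) placed the peak of Cyp1a1 at ZT18.3 (SE 0.948 h) under NRF and at ZT10.1 (SE 0.821 h) under DRF, an absolute shift of 8.15 h (SE 1.25 h). The amplitude was 1.304 (SE 0.37) under NRF and 1.52 (SE 0.30) under DRF on that scale. Both fitted peaks fell after the sampled maxima. The NRF amplitude was 0.74 without ZT16 and 0.77 without both NRF ZT16 libraries that carried lung markers, and the DRF amplitude was 0.82 without ZT8 and 2.39 without ZT12. The shift was 5.27 h without ZT8, 5.39 h without ZT12, 11.6 h without ZT16 and 10.7 h without that pair of NRF ZT16 libraries. Without both libraries that are closest to another clock time it was 8.67 h.

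Cyp1a1 was also set side by side at equal time since food was given. At 8 h into feeding, DRF ZT8 stood against NRF ZT20 (4.48, 3.38, 14.01 and 4.93 TPM), with no overlap. The log2 difference (DRF minus NRF) was 3.01 (SE 0.63). At 4 h into feeding, NRF ZT16 stood against DRF ZT4, where the 4 libraries had 0.691, 2.33, 4.19 and 7.50 TPM and the lowest is the library closest to another clock time. These 2 sets overlapped, since the lower pair at NRF ZT16 had 4.31 and 5.66 TPM. Their log2 difference was -2.91 (SE 0.63), opposite in sign to that at 8 h into feeding. At 4 h into fasting, all 4 DRF ZT16 libraries lay above all 4 NRF ZT4 libraries (2.93, 2.70, 1.48 and 1.20 TPM), a log2 difference of 1.91 (SE 0.63). At the other 3 food-matched times the difference was between 0.10 and 0.25. At the equal clock times ZT0 and ZT24 the regimens stood in the opposite order to ZT8 and ZT12, with all 4 NRF libraries above all 4 DRF libraries. NRF had 3.48, 2.98, 3.04 and 2.13 TPM at ZT0, and 4.47, 6.69, 11.5 and 3.53 TPM at ZT24. DRF had 0.872, 1.34, 3.21 and 3.06 TPM at ZT24. At ZT12 the order was that of ZT8, with 3.53, 2.91, 5.18 and 7.77 TPM under DRF.

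ZT24 is the same clock time as ZT0, reached a day later. For Cyp1a1, whose values at both times were among those that chose it, the log2 difference (ZT24 minus ZT0) was 0.48 (SE 0.63) under DRF and 0.85 (SE 0.63) under NRF, given without a test. The SE is shared by all 14 groups, the split NRF ZT16 included. All 4 NRF ZT24 libraries lay above all 4 NRF ZT0 libraries, while the DRF libraries of these times overlapped. None of the other 4 members passed in either regimen, against 0.425% of genes under DRF and 0.0576% under NRF. Of these 8 comparisons 0 had an unadjusted p under 0.05, their adjusted p lay between 0.644 and 0.943 (limma), and voom called 0.

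Markers of another organ were checked where Cyp1a1 was high, because Cyp1a1 is well known in lung. The summed level of 5 lung epithelium genes (Sftpc, Sftpb, Sftpa1, Scgb1a1 and Ager) in the NRF ZT16 libraries was 0.640, 21.9, 1.68 and 19.7 TPM, so replicates 2 and 4 were high in both. At DRF ZT8 the sums were 8.17, 0.213, 0.356 and 0.524 TPM while Cyp1a1 was high in all 4 libraries, and the library with 124.0 TPM of Cyp1a1 had 0.356 TPM of the markers. In the other direction, 4 libraries outside NRF ZT16 had sums of 18.6 to 20.5 TPM and Cyp1a1 at 0.850 to 4.19 TPM. Over all libraries the sums ran from 0.213 to 20.5 TPM under DRF and from 0.192 to 21.9 TPM under NRF. The part of lung tissue in the NRF ZT16 values was not tested.

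**Figure D2:**
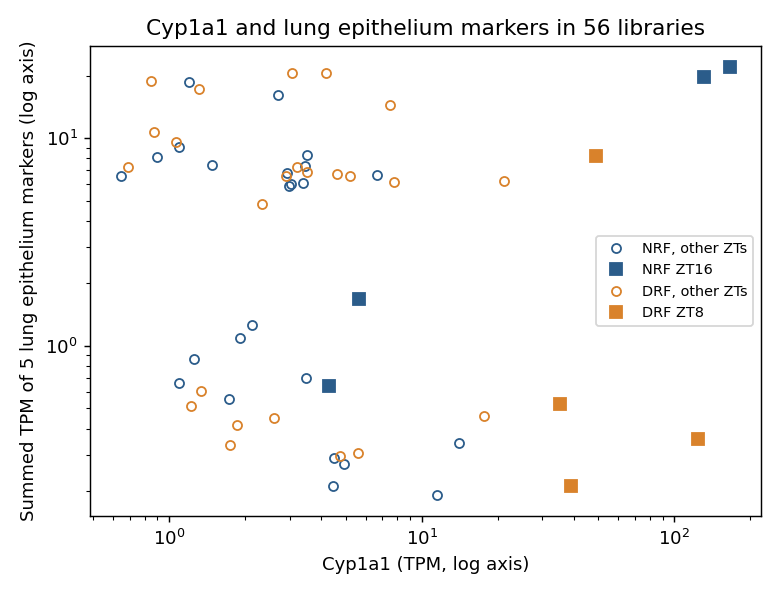
Summed TPM of the 5 lung epithelium markers (log axis) against Cyp1a1 (TPM, log axis) in 56 libraries, with filled squares for NRF ZT16 and DRF ZT8 and open circles for the other times. Of the DRF ZT8 squares, 3 lie at marker sums of 0.213 to 0.524 TPM, and both high NRF ZT16 squares lie at 19.7 and 21.9 TPM.

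Other marker sums at NRF ZT16 also varied. Atrial genes (Myl7, Myl4, Sln and Nppa) summed to 661.05, 4312, 238.8 and 248.3 TPM, and adipocyte genes (Adipoq, Cfd, Ucp1 and Lep) to 25.6, 172.6, 28.4 and 58.7 TPM. Both were highest in replicate 2. Replicate 4 lay below the NRF median of 609.5 TPM for atrial genes and above that of 47.9 TPM for adipocyte genes. Liver genes (Alb, Apoa2, Ttr and Serpina1a) summed to 3.59, 6.56, 13.4 and 3.97 TPM there and to 3.23, 5.83, 22.1 and 12.4 TPM at DRF ZT8, within the range of 2.09 to 86.8 TPM over all libraries. Their part in the values was not tested.

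Among genes whose 14 group means ran most like those of Cyp1a1 (Pearson r of log2(TPM + 1) over 14 groups, given as a description), Gm24366 came first (r = 0.85), at group means of only 0.75 to 3.5 reads per library and at 0 in some library of 7 groups, followed by Rarb (0.79), a retinoic acid receptor, Edc3 (0.79), an mRNA decapping enhancer, Fgf7 (0.77), a growth factor, Efcab2 (0.75), Ttc17 (0.74), Cdc73 (0.74), Chmp4c (0.73), Larp4b (0.73) and Zfp469 (0.73). The group means behind an r rest on the same libraries for every gene. No other member was among them, and the r of Cyp1a1 with the other 4 members was -0.19 with Ahr, 0.03 with Cyp1b1, 0.28 with Tiparp and 0.41 with Arnt.

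Edc3 is the neighbour of Cyp1a1 on the same strand. It spans chr9:57708540-57752499 and begins 4716 bases after the annotated end of Cyp1a1. Its level was 8.77, 7.95, 7.96 and 8.28 TPM at DRF ZT8 and 5.43, 13.01, 6.58 and 12.9 TPM at NRF ZT16, so replicates 2 and 4 were the high libraries of both genes. The median of Edc3 over all 56 libraries was 5.83 TPM, and outside these groups its highest library, of NRF ZT8, had 7.57 TPM, below all 4 DRF ZT8 libraries. The nearest listed gene on the other side, Csk, a kinase that restrains Src family kinases, lies 34297 bases away on the opposite strand. It had 16.3 ± 1.33 TPM at DRF ZT8 and 17.4 ± 1.17 TPM at NRF ZT16, against 15.9 ± 1.92 TPM at DRF ZT0 and 16.3 ± 1.17 TPM at NRF ZT12. Whether transcription past the end of Cyp1a1 added to the reads of Edc3 was not tested.

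**Figure D3:**
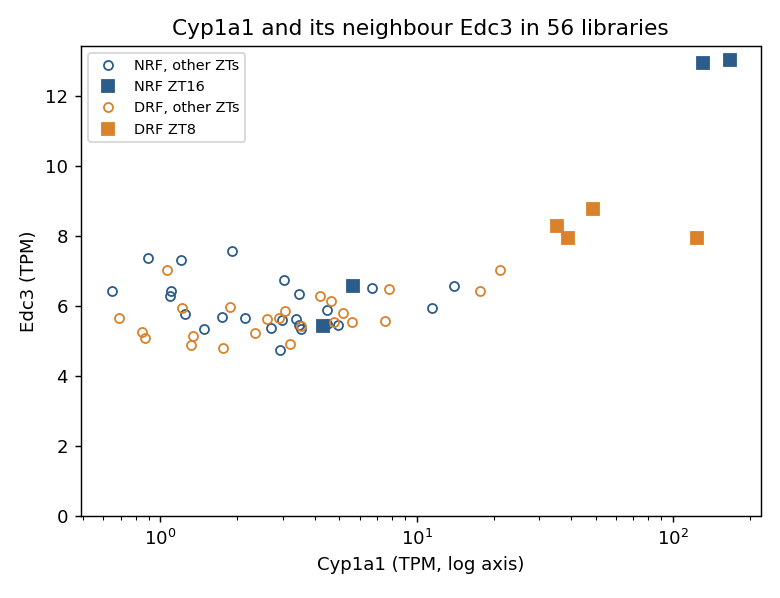
Edc3 (TPM, linear axis) against Cyp1a1 (TPM, log axis) in 56 libraries, with filled squares for NRF ZT16 and DRF ZT8 and open circles for the other times. The pair of NRF ZT16 libraries with 131.7 and 166.5 TPM of Cyp1a1 has 12.9 and 13.01 TPM of Edc3, and the DRF ZT8 squares lie between 7.95 and 8.77 TPM.

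The group means of the receptor and its partner ranged less widely than those of Cyp1a1. Ahr averaged 5.16 ± 0.59 TPM over the 28 DRF libraries and 4.81 ± 0.64 TPM over the 28 NRF libraries (SD), with group means between 4.11 and 5.52 TPM. Arnt had 15.6 ± 0.90 and 15.9 ± 1.16 TPM, with group means between 14.9 and 16.4 TPM. The highest DRF group of Arnt was ZT8 (16.3 ± 0.74 TPM), as for Cyp1a1, and its highest NRF group was ZT0 (16.4 ± 0.89 TPM). Of the 13 neighbouring pairs in the order of the group means, 12 for Ahr and 13 for Arnt differed by less than the larger SD.

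Tiparp, a target that limits the receptor, had 7.92 ± 0.64 TPM under DRF and 8.15 ± 1.17 TPM under NRF, with group means between 6.98 and 9.59 TPM. Cyp1b1, the second cytochrome of the family and known in fibroblast and vessel wall cells, had 6.599 ± 1.89 and 5.57 ± 3.30 TPM. Its widest group was NRF ZT16, where the libraries had 3.58, 20.9, 4.34 and 7.98 TPM. The library with 20.9 TPM is NRF ZT16 replicate 2, which also held the highest Cyp1a1, and replicate 4 with 7.98 TPM came next in that group. Tiparp in the same libraries was at 8.29, 12.0, 8.86 and 9.18 TPM, again highest in replicate 2 and then 4, while Ahr was at 3.59, 3.78, 5.43 and 3.63 TPM.

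**Figure D4:**
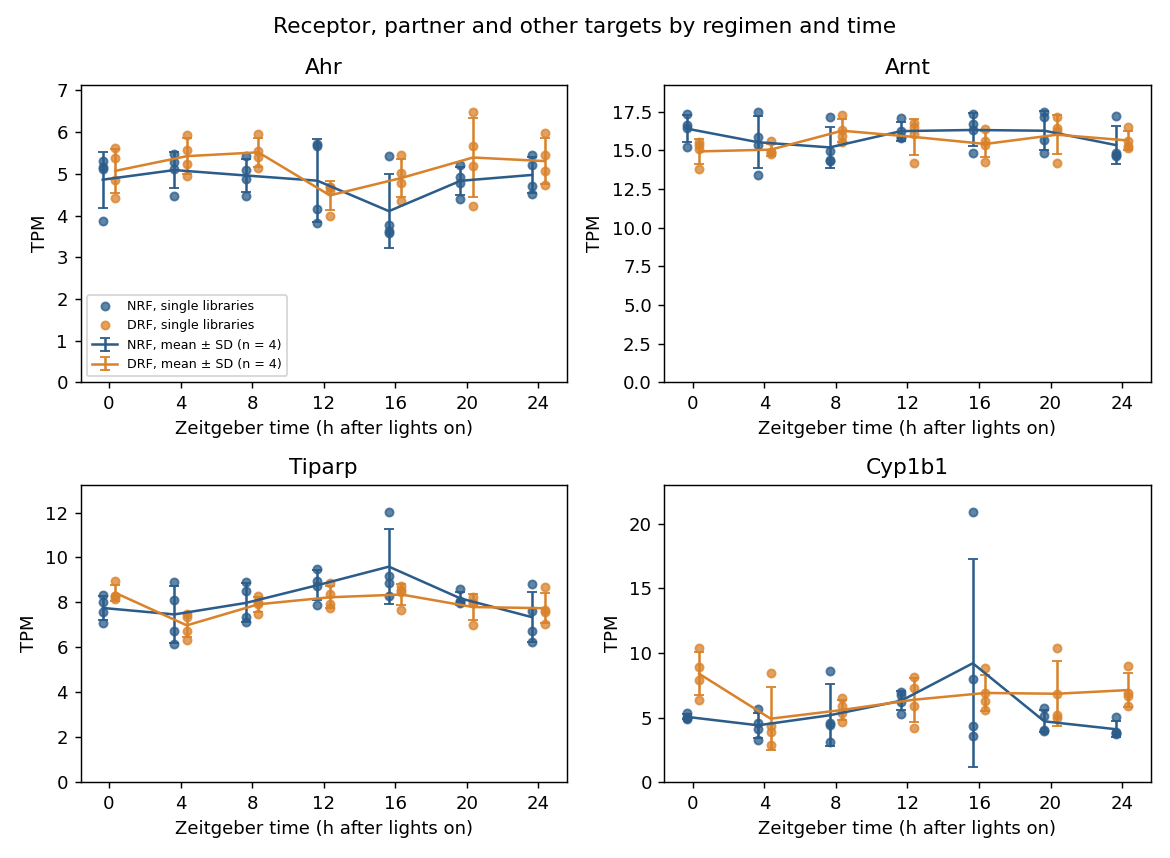
Ahr, Arnt, Tiparp and Cyp1b1 (TPM) against zeitgeber time, with points for single libraries and lines for the mean ± SD of 4 libraries under NRF (blue) and DRF (orange). The group means of Ahr stay between 4.11 and 5.52 TPM and those of Arnt between 14.9 and 16.4 TPM, and NRF ZT16 holds the widest spread of Cyp1b1.

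Rhythm was tested within each regimen, and 1 of the 4 tested members passed under NRF, where 37.2% of genes did. Tiparp rose toward a fitted peak at ZT14.8 (SE 0.989 h) with a log2 amplitude of 0.15 (SE 0.04; limma, adjusted p = 0.00934). Its NRF group means ran from 7.34 TPM at ZT24 to 9.59 TPM at ZT16. Without both NRF ZT16 libraries with lung markers it no longer passed (adjusted p = 0.0571), without both libraries that are closest to another clock time it was 0.00815, without ZT16 the value was 0.105, and over all alternatives it ranged from 0.00229 to 0.230. Under DRF, where 32.2% of genes passed, none of the 4 did (0 at an unadjusted p under 0.05), with adjusted p of 0.163 for Cyp1b1, 0.231 for Ahr, 0.578 for Arnt and 0.164 for Tiparp (limma). Tiparp passed there with median-of-ratios scaling (adjusted p = 0.00375), on the deposited values (0.00626) and with voom (0.0394), and Arnt passed under both regimens with median-of-ratios scaling (0.0152 under NRF and 0.0302 under DRF). The other NRF values were 0.1003 for Cyp1b1, 0.181 for Ahr and 0.393 for Arnt (limma, adjusted p).

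The difference in rhythm between regimens was past the threshold for 27.5% of genes and for none of the 4 tested members. At an unadjusted p under 0.05 the count was also 0, as it was with voom at the adjusted threshold. Adjusted p was 0.172 for Cyp1b1, 0.285 for Tiparp, 0.548 for Arnt and 0.853 for Ahr (limma). The 95% interval of the phase difference (DRF minus NRF) ran from -2.29 to 4.87 h for Tiparp, from -6.41 to 3.36 h for Ahr and from -13.2 to 2.79 h for Arnt. In the main fit no rhythm of Ahr or Arnt passed, nor that of Tiparp under DRF. Their phases are therefore poorly defined and these intervals only approximate. For Cyp1b1 the interval ran from 1.01 to 9.43 h and left out 0, at amplitudes of 0.29 under NRF and 0.22 under DRF, although neither rhythm of Cyp1b1 passed. Without both libraries that are closest to another clock time, the adjusted p of its rhythm difference was 0.0784 (limma).

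In mean level over the day 26.0% of genes differed, and none of the 4 tested members did with limma, where 2 (Cyp1b1 and Ahr) had an unadjusted p under 0.05 and voom called 1, Ahr. The log2 difference (DRF minus NRF) was 0.21 (SE 0.10) for Cyp1b1, 0.08 (SE 0.04) for Ahr, -0.02 (SE 0.03) for Arnt and -0.04 (SE 0.03) for Tiparp, with adjusted p of 0.118, 0.107, 0.561 and 0.372 (limma), against a median of -0.05 over all genes. Cyp1b1 passed without NRF ZT16 replicate 2, the library with 20.9 TPM (log2 difference 0.29, adjusted p = 0.0111), and its adjusted p over all alternatives ranged from 0.00482 to 0.453. Ahr passed with voom (adjusted p = 0.0366) and, with limma, under median-of-ratios scaling (0.0134), on the deposited values (0.0370) and without ZT12 (0.0215), of a range up to 0.473. For Cyp1a1 the difference was 0.44 (SE 0.26), given without a test. Its direction held on the log2 scale only, since the linear means were 12.7 TPM under DRF and 14.04 TPM under NRF. It was 0.0121 without ZT8 and 0.81 without both NRF ZT16 libraries with lung markers.

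At single ZTs none of the 28 comparisons of the 4 tested members between regimens passed. At an unadjusted p under 0.05 there were 3 (Cyp1b1 at ZT0 and ZT24, Ahr at ZT16), and voom gave 0 at the adjusted threshold. Of all genes, 11.5% were called at ZT0 and 0.446% at ZT4, then 0.353% and 7.62% at ZT8 and ZT12. The shares were 6.87% for ZT16, 14.9% for ZT20 and 8.80% for ZT24. Cyp1b1 came nearest, since all 4 DRF libraries lay above all 4 NRF libraries at both ends of the day. It had 8.92, 7.88, 10.4 and 6.40 TPM under DRF at ZT0, and 4.95, 5.33, 5.07 and 4.90 TPM under NRF. At ZT24 it had 6.71, 5.94, 8.97 and 6.93 TPM under DRF, and 3.71, 3.81, 3.86 and 5.04 TPM under NRF. The log2 differences were 0.61 and 0.67 (SE 0.28 each), with adjusted p of 0.145 and 0.120 (limma). The ZT24 value passed without NRF ZT16 replicate 2, a library of neither group whose spread enters the error shared by all groups (adjusted p = 0.0474).

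At equal times since food was given, 2 of 24 comparisons of the tested members passed, both at 4 h into feeding, DRF ZT4 against NRF ZT16, where 6.41% of genes were called. Cyp1b1 at that time had a larger log2 difference of -0.57 (SE 0.28) and did not pass (limma, unadjusted p = 0.0426, adjusted p = 0.240). Tiparp was lower under DRF, with 7.48, 7.35, 6.74 and 6.35 TPM against the NRF values given above and no overlap (log2 difference -0.40, SE 0.09; limma, adjusted p = 0.00233). Without both libraries that are closest to another clock time it was -0.43 (adjusted p = 0.00252). Without both NRF ZT16 libraries with lung markers it was -0.26 and did not pass (adjusted p = 0.173). Nor did it pass without replicate 2 of every group (-0.32, adjusted p = 0.0695).

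Ahr was higher under DRF at the same time, with 5.58, 5.93, 4.95 and 5.23 TPM, and its ranges overlapped with NRF ZT16 because NRF ZT16 replicate 3 had 5.43 TPM (log2 difference 0.34, SE 0.10; limma, adjusted p = 0.0328). It did not pass without both libraries that are closest to another clock time (0.33, adjusted p = 0.0666), nor without any of DRF ZT4 replicates 1 and 2 and NRF ZT16 replicates 1, 2 and 4 (adjusted p between 0.0695 and 0.134). Without both NRF ZT16 libraries with lung markers it was 0.24 (adjusted p = 0.411), and without replicate 2 of every group 0.28 (adjusted p = 0.312). At the other 5 food-matched times none of the 4 passed, and 0 had an unadjusted p under 0.05 (limma). With median-of-ratios scaling Arnt passed at 8 h into fasting (log2 difference 0.20, adjusted p = 0.00110) and Tiparp at 4 h into fasting (0.26, adjusted p = 0.0104), as both did on the deposited values (adjusted p = 0.0110 and 0.0463). At these times 6.22% of genes were called just before feeding, 5.48% at 8 h, 9.82% at the end of feeding, 22.6% at 4 h into fasting and 24.1% at 8 h into fasting.

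The other genes of the pathway were read from lists of the receptor complex, ARNT partners, AHR targets and repressor, and the electron donors and haem enzymes that P450 activity needs. Of 36 genes, 30 had a recovered level, and 20 beside Cyp1a1 passed the filter, the 4 tested members included. The lists were written with earlier results of these data known, so the counts describe the listed genes and do not measure enrichment of the pathway. Of these 20, 13 were rhythmic under NRF, against 37.2% of all genes, and 4 under DRF, against 32.2%. The rhythm differed for 9, against 27.5% of all genes, and the mean level for 3, all lower under DRF, against 26.0%. The 9 fell to 5 without replicate 2, replicate 3 or ZT20. The 3 fell to 1 without any of the replicate numbers, without ZT8, ZT16 or ZT20, and without some single libraries. Without both libraries that are closest to another clock time the counts were 10 for rhythm and 3 for mean level. Markers of other heart cells were also lower in mean level under DRF, 5 of 5 endothelial, 3 of 4 fibroblast, 3 of 4 smooth muscle and pericyte and 3 of 4 macrophage genes (log2 differences from -0.39 to 0.01 over these lists), while of 5 cardiomyocyte genes 1 was lower and 1 higher. Of all genes, 26.0% differed in mean level, a share that covers both directions. The 4 atrial genes had log2 differences of 0.79 to 1.26 that did not pass, and 1 of 2 liver genes, Alb, was higher under DRF. Their part in the lower pathway genes was not tested. The median log2 difference in mean level over the 20 was -0.04, against -0.05 over all genes.

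The receptor complex held 5 of the 20. Hsp90aa1, which encodes the stress-inducible HSP90 chaperone, rose to 117.1 ± 21.5 TPM at NRF ZT16 and 129.1 ± 18.7 TPM at NRF ZT20, from 55.2 ± 6.53 TPM at NRF ZT12. Under DRF its group means lay between 64.0 and 93.3 TPM, and the rhythm differed between regimens (limma, adjusted p = 0.000278). Ptges3, the p23 co-chaperone, also differed (amplitude 0.16 under NRF and 0.07 under DRF, adjusted p = 0.0173).

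Among the targets, Nqo1, a quinone reductase that is also a target of the antioxidant factor NFE2L2, was lower in mean level under DRF (log2 -0.26, SE 0.04; limma, adjusted p = 1.94e-05) and its rhythm differed (adjusted p = 7.08e-05). It peaked at ZT9.50 under NRF and at ZT4.60 under DRF, and its group means reached 75.9 ± 9.49 TPM at NRF ZT12 against 51.6 ± 3.67 TPM at DRF ZT12. Xdh, which encodes xanthine dehydrogenase, peaked at ZT14.8 under NRF and ZT18.3 under DRF, with amplitudes of 0.61 and 0.41 (rhythm difference adjusted p = 9.90e-05). The repressor Ahrr averaged 0.922 TPM, below the filter.

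Of the 5 electron donor and haem genes, 4 differed in rhythm, against 27.5% of all genes. Alas1, the rate-limiting enzyme of haem synthesis, was the gene of the lists with the lowest adjusted p (1.38e-06, limma). It peaked at ZT0.08 under NRF and at ZT12.6 under DRF, and rose from 55.0 ± 1.94 TPM at NRF ZT12 to 80.1 ± 16.2 TPM at NRF ZT0, and from 51.9 ± 5.52 TPM at DRF ZT0 to 80.0 ± 8.03 TPM at DRF ZT16. Por, the reductase that passes electrons to P450 enzymes, had an amplitude of 0.31 under NRF and 0.08 under DRF (adjusted p = 0.00036). Cyb5a, cytochrome b5, and Hmox1, haem oxygenase, differed at adjusted p of 0.0105 and 0.0164, and Cyb5r3, the reductase of cytochrome b5, was lower in mean level under DRF (log2 -0.10, SE 0.04, adjusted p = 0.0430). Among ARNT partners, Hif1a had an amplitude of 0.28 under NRF and 0.02 under DRF (adjusted p = 0.0233, limma).

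**Figure D5:**
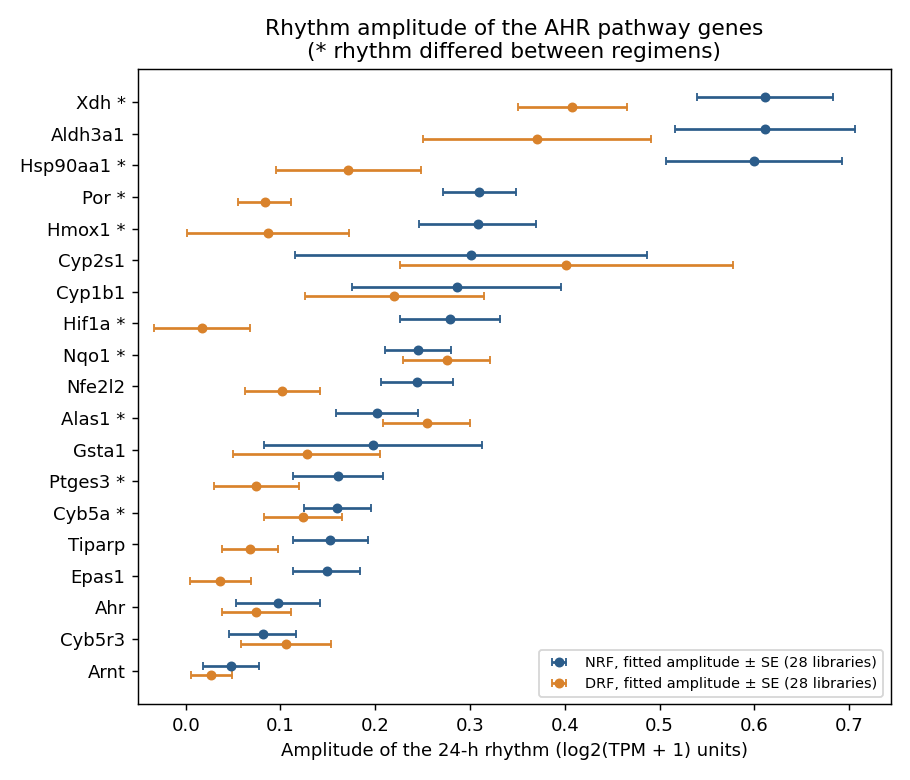
Fitted amplitude ± SE of the 24-h rhythm (log2(TPM + 1) units) of 19 tested genes of the AHR lists under NRF (blue) and DRF (orange), ordered by amplitude under NRF, with an asterisk where the rhythm differed between regimens. Hsp90aa1 has 0.60 under NRF and 0.17 under DRF, and Ahr and Arnt lie near the bottom, under 0.10 in both.

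Likeness to the other members was described in the same way. The group means of Tiparp ran most like those of Ms4a4d (r = 0.91), Klf6 (0.90) and Lyst (0.89), those of Cyp1b1 like Gata6 (0.89), Slc45a3 (0.88) and Ahsg (0.87), those of Ahr like 4933431E20Rik (0.82), Irx3 (0.79) and 9130023H24Rik (0.79), and those of Arnt like Immt (0.83), Ttc3 (0.83) and Stxbp4 (0.82). Between members, the highest r was that of Cyp1b1 and Tiparp (0.68) and the lowest that of Ahr and Tiparp (-0.73), over 14 group means that share their libraries.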

How the data were processed

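PolyA RNA-seq of 56 mouse heart libraries was analysed. The submitters' processing notes name HISAT2 2.0.5, featureCounts 1.5.0-p3 and build mm10. The values that the authors deposited as TPM were not linear. Each was a library constant times log2(1 + scaled reads) divided by exon length, which compresses high levels. With 2 constants fitted for each library, the values were turned back into whole reads, using exon lengths from GENCODE M21. For 831 genes, Cyp1b1 among them (5128 bases in place of 5840), a length giving whole reads was searched for, and 4 genes were left out, Hsp90ab1 among them. Of 1.19231e+06 values, 99.9996% came within 0.1 of a whole read. Recovery and fits were checked on simulated data. The tests had been designed for linear TPM, so linear TPM was recomputed.

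Reads recovered for the genes kept came to 29.3 M to 53.0 M per library, which is not the full sequencing depth. Genes averaging at least 1 TPM were tested on log2(TPM + 1), which understates changes near 1 TPM, with limma 3.58.1 (R 4.3.3; eBayes, trend) and Benjamini-Hochberg adjusted p under 0.05 over 13893 genes. Rhythm was an F test of cosine and sine terms (24 h), its difference an interaction test, and levels were contrasts of 14 group means. No molecular identifiers are described, so PCR copies count as reads. The members and lists were chosen with earlier results of these data known. Named were the 5 members, up to 10 pathway genes past the rhythm difference or mean level test by adjusted p, and the 10 genes most like Cyp1a1 and 3 most like each other member. A gene of the pathway lists that enters the counts is not reported here. Alternatives were another pseudocount, no filter, median-of-ratios scaling, the deposited values, voom, a replicate block, and leaving out each replicate number, ZT and library. Leaving out the libraries that are closest to another clock time, or both NRF ZT16 libraries with lung markers, and each library in the harmonic fits, was added after seeing the data, as were the ratios of Cyp1a1 means without single libraries. Figures were drawn with matplotlib 3.10.9.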

Additional observations from a re-analysis of the deposited data

Results flagged for a closer look

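In 9 of the 70 groups of 4 libraries (14 groups for each of 5 members) a library lay far from the other 3 by Dixon's test, where chance marks about 1 group in 20. For Cyp1a1 these were DRF ZT8 replicate 3 at 124.0 TPM and NRF ZT20 replicate 3 at 14.01 TPM, each the highest of its group. For Cyp1b1 it was NRF ZT24 replicate 4, the highest at 5.04 TPM. For Ahr they were DRF ZT12 replicate 4 at 3.98 TPM and NRF ZT0 replicate 4 at 3.86 TPM, each the lowest, and NRF ZT16 replicate 3 at 5.43 TPM, the highest. For Arnt it was NRF ZT24 replicate 1 at 17.2 TPM, for Tiparp DRF ZT0 replicate 2 at 8.96 TPM and NRF ZT20 replicate 1 at 8.62 TPM, each the highest. The split of Cyp1a1 at NRF ZT16 into 2 libraries at each end is not of the kind this test finds.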

How the results depend on the processing

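Beside the main settings, 75 others were tried, and no called value changed sign. Deviations of same-numbered libraries had a mean r of 0.02 over 364 pairs (from -0.40 to 0.57), against -0.006 for libraries of other numbers. The main fits therefore did not pair libraries by number, although such a mean cannot exclude a batch shared by some of them. With the replicate block the 9 rhythm differences of the pathway stayed at 9 and the 3 mean level calls became 4, with 2 member calls at food-matched times and the Cyp1a1 shift at 8.15 h. None of the 75 gave a rhythm difference for a tested member, and none of the 68 run for ZT24 against ZT0 (a ZT was not left out there) gave a call. Under median-of-ratios scaling 2 members were rhythmic under each regimen, 1 differed in mean level and 4 food-matched comparisons passed. On the deposited values these were 1 under DRF, 1 and 4, with voom 1 under DRF and 1 in mean level, and without a filter 1 food-matched comparison passed. Without ZT0, 1 member was rhythmic under DRF, without ZT12, 1 differed in mean level, and without ZT16, 0 were rhythmic under NRF. Without both NRF ZT16 libraries with lung markers, 0 members were rhythmic under NRF, 1 differed in mean level, 2 passed at single ZTs and 0 at food-matched times. Without both libraries that are closest to another clock time 1 food-matched comparison passed. Leaving out a replicate number or a library gave 0 to 2 members rhythmic under NRF, 0 to 1 different in mean level, 0 to 1 calls at single ZTs and 0 to 2 at food-matched times.

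For Cyp1a1 the shift was 5.27 h without ZT8, 5.39 h without ZT12, 11.6 h without ZT16 and 10.7 h without both NRF ZT16 libraries with lung markers. The NRF amplitude was 1.79 with voom, 0.74 without ZT16, 1.69 without ZT20 and 0.77 without both of those libraries, and the DRF amplitude 0.82 without ZT8 and 2.39 without ZT12. The mean level difference was 0.0121 without ZT8, 0.72 without ZT16 and 0.81 without both of those libraries. The pathway count of rhythm differences was 5 without ZT20 and 5 to 10 with a replicate number or library left out, and that of mean level differences was 1 without ZT8, ZT16 or ZT20 and 1 to 4 with a replicate number or library left out. The cause was not tested.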
